A study of Mus musculus with 6 samples.

Results

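Interferon-stimulated genes, the genes that cells switch on when interferon reaches them, were followed in sorted glomerular endothelial cells of mice labelled as null for endothelial nitric oxide synthase (eNOS). The set was a list of 37 gene symbols covering antiviral effectors, RNA sensors, STAT and IRF transcription factors and interferon-inducible GTPases. A row with the same symbol was found for 32 of them among the 12911 genes listed, and all 32 passed the filter on low counts. No row was found for Ifit3b, Oas3, Mx1, Mx2 and Zbp1, which are not analysed here.

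RNA sequencing compared 3 libraries from mice labelled eNOS-null and given streptozotocin (STZ), which kills pancreatic beta cells and is used to induce diabetes, with 3 libraries from mice labelled eNOS-null without treatment (control). Both groups carry the same genotype label, and no library of another genotype was compared. Each library held pooled RNA of 4 mice, and the cells came from a sort by EYFP fluorescence after glomeruli had been collected with magnetic beads. Errors and p-values therefore measure the spread between pools, not between mice. The sources used here do not give the strain, age, sex, STZ dose, time after STZ or the construct that drives EYFP.

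Type I interferons bind a receptor on the cell surface whose Janus kinases phosphorylate STAT proteins, STAT2 among them. With IRF9 these form a complex that binds interferon-stimulated response elements (ISRE) in the promoters of target genes, whereas interferon gamma acts through STAT pairs at gamma-activated sites (GAS). In the kidney, glomerular endothelium is known to respond to interferon, and tubuloreticular inclusions in these cells are a recognised mark of interferon exposure in lupus nephritis.

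The promoter sequences are shown first. The list was not chosen by sequence, but the response element is known for genes of this kind. Frequent matches among them therefore follow from the choice of the list and are not a separate finding. RefSeq promoter windows (GRCm38.p6, from 250 bases before to 50 bases after a transcription start) were given for 25 of the 32 genes with a row. The letters GAAANNGAAA, read on either strand and called ISRE-like here, occurred in 16 of the 25 genes (64.0%), against 3.99% of 27025 genes with a window. The letters TTCNNNGAA, which read the same on both strands and are called GAS-like here, occurred in 8 of the 25 (32.0%), against 9.55% of genes with a window. ISRE-like matches overlapped each other in 5 of the genes, and a GAS-like match overlapped an ISRE-like one in Bst2 and Ifitm3. A match is a description of letters, not a measured binding site.

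The promoters of the genes that differed between the groups are printed 5′ to 3′ on the gene's strand, with ISRE-like letters in capitals and all other bases in lower case. The stretches of Isg15, Irf7 and Bst2 are the 250 bases before the start, and that of Ifitm3 runs from 30 bases before the start to base 30 after it.
Isg15 (chr4:156200819-156201068, minus strand): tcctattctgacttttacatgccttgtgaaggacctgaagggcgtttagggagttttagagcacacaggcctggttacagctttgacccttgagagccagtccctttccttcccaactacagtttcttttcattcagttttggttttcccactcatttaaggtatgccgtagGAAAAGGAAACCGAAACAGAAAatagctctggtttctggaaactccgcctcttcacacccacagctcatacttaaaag
Irf7 (chr7:141266425-141266674, minus strand): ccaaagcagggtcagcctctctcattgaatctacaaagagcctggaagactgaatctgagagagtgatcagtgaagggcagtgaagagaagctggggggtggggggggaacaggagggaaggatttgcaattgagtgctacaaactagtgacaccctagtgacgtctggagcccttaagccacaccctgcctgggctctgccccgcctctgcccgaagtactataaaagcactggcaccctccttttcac
Bst2 (chr8:71537473-71537722, minus strand): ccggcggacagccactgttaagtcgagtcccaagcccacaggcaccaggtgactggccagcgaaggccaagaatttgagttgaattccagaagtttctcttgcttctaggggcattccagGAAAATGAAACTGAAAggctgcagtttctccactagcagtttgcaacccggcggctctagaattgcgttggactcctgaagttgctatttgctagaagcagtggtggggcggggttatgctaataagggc
Ifitm3 (chr7:141010715-141010774, minus strand): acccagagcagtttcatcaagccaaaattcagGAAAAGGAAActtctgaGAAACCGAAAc
Isg15 carried 3 overlapping matches that began 78, 72 and 66 bases before the start, and Bst2 carried 2 that began 130 and 124 bases before it. In Ifitm3 the matches began at bases 3 and 20 after the start, and the Irf7 window held none, which says only that these letters are not in this window.

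For comparison, stretches of 60 bases are given for 6 members that did not pass the test of STZ against control, chosen to show the element in each arrangement. The first pair belongs to genes of the IFIT family, Oas1a to the OAS family, Igtp and Irgm1 to the GTPases, and Stat2 to the transcription factors.
Ifit1 (chr19:34640769-34640828, plus strand): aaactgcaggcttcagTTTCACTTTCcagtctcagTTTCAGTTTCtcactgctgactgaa
Ifit3 (chr19:34583365-34583424, plus strand): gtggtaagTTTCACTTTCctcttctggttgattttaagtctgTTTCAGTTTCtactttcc
Oas1a (chr5:120907508-120907567, minus strand): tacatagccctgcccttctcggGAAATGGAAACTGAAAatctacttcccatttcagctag
Irgm1 (chr11:48871413-48871472, minus strand): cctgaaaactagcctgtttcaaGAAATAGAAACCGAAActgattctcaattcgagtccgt
Igtp (chr11:58199497-58199556, plus strand): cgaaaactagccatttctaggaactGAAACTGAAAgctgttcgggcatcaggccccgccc
Stat2 (chr10:128270251-128270310, plus strand): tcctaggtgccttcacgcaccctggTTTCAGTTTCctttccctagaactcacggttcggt
Ifit1 and Ifit3 had 2 separate copies, Oas1a and Irgm1 had 2 copies sharing a GAAA, and Igtp and Stat2 had 1. In Ifit1, Ifit3 and Stat2 the letters lay on the opposite strand and read TTTCNNTTTC on the strand shown.

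Total deposited counts were 10734376 to 12662371.5 in STZ libraries and 4387339 to 8751732.5 in control libraries, so every STZ library was deeper. Nos3 averaged 676 ± 68.3 CPM (counts relative to library size after TMM normalization) in STZ and 840 ± 80.5 CPM in control (SD, n = 3 each). Its 4152 to 8657 counts per library show that the gene which encodes eNOS was read in every library, at 164 CPM per kb in STZ and 204 CPM per kb in control, so these values do not bear out a loss of the transcript. Which allele the reads came from cannot be seen in gene counts, so the genotype is known here from the labels only. The groups also split by sex-linked transcripts. Xist averaged 0.687 ± 0.261 CPM in STZ and 709 ± 32.4 CPM in control, while the Y-linked Ddx3y averaged 135 ± 4.09 CPM in STZ and 3.07 ± 0.375 CPM in control (SD, n = 3 each). Treatment and this split cannot be told apart in any comparison given here. Of 12 endothelial markers, 7 (58.3%) were called higher, where edgeR called 5.47% of all tested genes higher and 4.32% lower. The summed level of the 12 was 27289 to 29399 CPM in STZ against 16048 to 18170 CPM in control. Plat (8303 CPM in STZ, 2630.0 CPM in control), Ehd3 (5230.0 CPM in STZ, 3001 CPM in control) and Emcn (3685 CPM in STZ, 2759 CPM in control) weigh most in these sums. The median log2 fold change of the 12 was 0.45, with Tek at 0.02 and Tie1 at -0.01. Podocyte markers summed to 4792 to 5947 CPM in STZ and 4460 to 7265 CPM in control, with 0 of 10 called by edgeR, DESeq2 or limma-voom (2 had an unadjusted p under 0.05 in edgeR). Mesangial and mural markers summed to 450 to 833 CPM in STZ and 1167 to 1264 CPM in control, with 3 of 10 called lower. All 10 had fold changes below 0, with a median log2 fold change of -0.82. In 9 of them every STZ pool lay below every control pool, as in 13.7% of all tested genes. Of 10 tubular markers 6 had a row, 1 of them was called lower, and they summed to 39.7 to 227 CPM in STZ and 144 to 464 CPM in control. In bulk RNA, fewer cells of a type and less RNA per cell cannot be told apart.

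As a set, the interferon-stimulated genes differed little between STZ and control. Ifitm3, Bst2, Irf7 and Isg15 rose, by 1.26- to 1.37-fold, and the other 28 members did not pass the test, where 9.78% of all tested genes were called in either direction. The test was edgeR's quasi-likelihood F test with Benjamini-Hochberg adjustment over 12786 tested genes and a threshold of 0.05. The 4 higher members were 12.5% of the 32, where 5.47% of all tested genes were called higher. None was called lower, where 4.32% of all tested genes were, and 2 members, Stat2 and Trim30a, were lower at an unadjusted p under 0.05. DESeq2 also called 4 members higher and 0 lower, and limma-voom called 3 higher and 0 lower. Only 2 members were called higher with upper-quartile normalization and 2 with counts thinned to the shallowest library. Without 1 library the number was 0 to 2, and it was 0 without STZ pool 1.

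Fold changes of the members lay in a narrow band around no difference. The median log2 fold change, STZ over control, was 0.03 for the members and -0.01 for all tested genes, and 17 members were above 0 and 15 below. The median size of the log2 fold change, without its sign, was 0.10 for the members, 0.17 for all tested genes and 0.19 for 85 other genes of the interferon pathway. The whole range ran from -0.26 for Trim30a to 0.46 for Isg15. The 95% interval of the fold change lay within 1.5-fold in either direction for 30 of the 32 members (93.8%), against 61.6% of all tested genes. The exceptions were Isg15 and Bst2, whose upper bounds passed 1.5-fold. The width of an interval also depends on precision. The median SE on the log2 scale was 0.0997 for the members and 0.132 for all tested genes, so the 2 shares differ partly in precision.

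**Figure D1:**
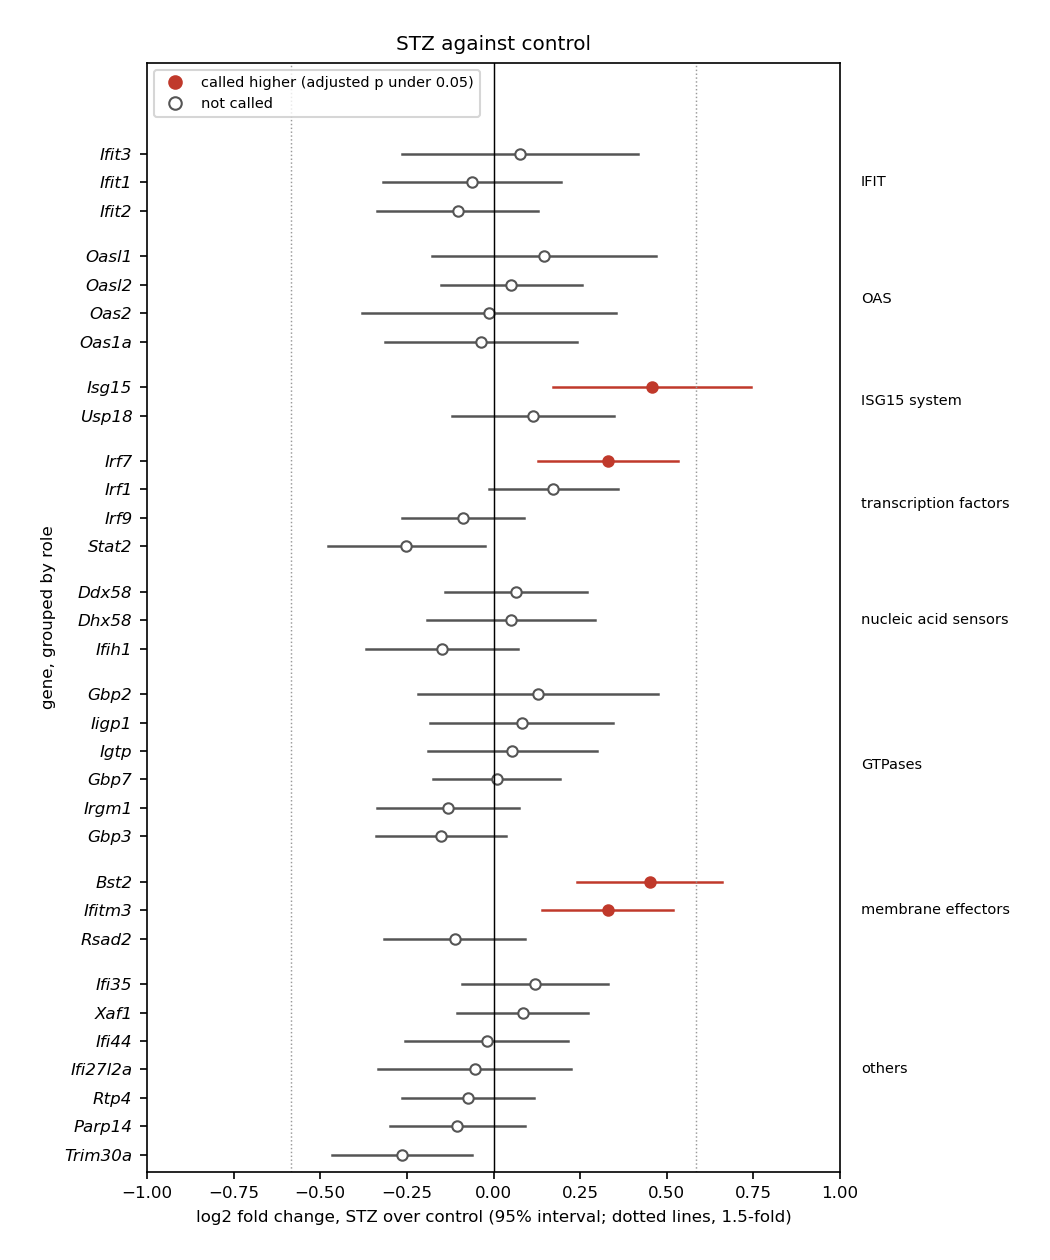
Log2 fold change of STZ over control for the 32 tested interferon-stimulated genes, grouped by role, with the 95% interval of the edgeR fit as a bar and dotted lines at 1.5-fold in either direction. The 4 filled points are the members called higher (Isg15, Irf7, Bst2, Ifitm3), and Isg15 and Bst2 are the members whose bars cross a dotted line.

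**Figure D2:**
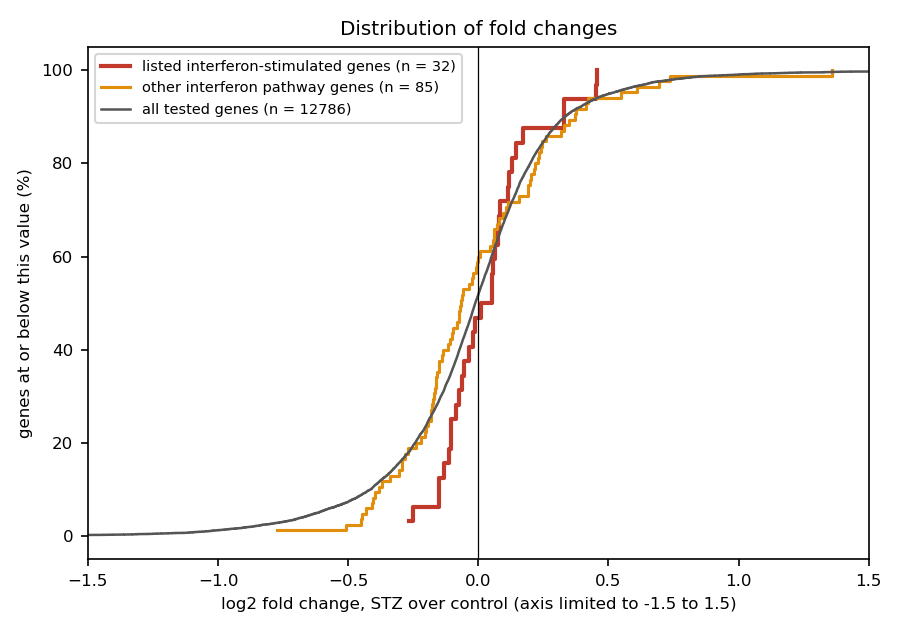
Share of genes (vertical axis, %) at or below each log2 fold change of STZ over control (horizontal axis, limited to -1.5 to 1.5) for the 32 listed interferon-stimulated genes, 85 other interferon pathway genes and all 12786 tested genes. The line of the members is the steepest and spans -0.26 to 0.46, with its median at 0.03.

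Upstream of the members, no interferon gene was followed, since none of the 10 ligand genes looked for had a row. All 10 genes of the list of receptors and Janus kinases were tested. Of these, 1 was called lower and 0 higher by edgeR, DESeq2 and limma-voom alike. Among all tested genes edgeR called 4.32% lower and 5.47% higher. At an unadjusted p under 0.05 in edgeR, 1 of the 10 was higher and 2 were lower. Fold changes were below 0 for 8 of the 10 (median -0.16) and for 6627 of all 12786 tested genes (median -0.01). Ifngr2, the signalling chain of the interferon gamma receptor, had 51.3, 46.8 and 48.6 CPM in STZ pools, against 70.1, 57.5 and 70.0 CPM in control pools. It fell by 0.43 ± 0.10 (SE) on the log2 scale (adjusted p = 0.0192), and every STZ pool lay below every control pool. Leaving out control pool 1 or any 1 of the STZ pools ended the call (adjusted p up to 0.104), as did thinning all libraries to the shallowest (0.151). Il10rb, a chain shared by the interferon lambda and interleukin 10 receptors, was the most abundant of these genes per kilobase, at a log2 fold change of -0.10 (adjusted p = 0.554).

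Among the transcription factors on the list, 1 of 4 was called, where 9.78% of all tested genes were called in either direction. Irf7, which drives the production of type I interferon and is itself induced by it, had 167, 164 and 164 CPM in STZ pools, against 146, 128 and 118 CPM in control pools. All STZ pools were above all control pools, and the control pools were spread more widely. Irf7 rose by 0.33 ± 0.09 (SE) on the log2 scale, or 1.26-fold (95% interval 0.13 to 0.53 on the log2 scale, adjusted p = 0.0415 by edgeR). Irf7 no longer passed when STZ pool 1 (adjusted p 0.152), STZ pool 2 (0.0728), STZ pool 3 (0.116), control pool 2 (0.0834) or control pool 3 (0.0883) was left out. It also did not pass with upper-quartile normalization (0.0523) or with counts thinned to the shallowest library (0.0655). Irf7 shares 45 exon bases with Phrf1 on the other strand in the GENCODE M21 annotation, where reads of the pair cannot be told apart without strand. The strand setting of the counting is not stated in these sources.

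The other transcription factors went in both directions without a call. Stat2, which carries the type I signal to the nucleus, had 256, 310 and 278 CPM in STZ pools, against 373, 313 and 318 CPM in control pools, and its log2 fold change was -0.25 ± 0.10 (SE, adjusted p = 0.158 by edgeR). The groups did not overlap, although the highest STZ pool came close to the lowest control pool. Irf9, the DNA-binding part of the type I complex, had 144, 147 and 144 CPM in STZ pools and 160, 149 and 153 CPM in control pools, a log2 fold change of -0.09 ± 0.08 (adjusted p = 0.571). It shares 123 exon bases with Rnf31 on the same strand, so some reads may have been counted for either gene. Irf1, which carries the response to interferon gamma, had 174, 171 and 166 CPM in STZ pools and 155, 158 and 140 CPM in control pools (0.17 ± 0.09, adjusted p = 0.241). In all 4 factors the STZ pools lay wholly on one side of the control pools, above in Irf1 and Irf7 and below in Irf9 and Stat2, where 29.1% of all tested genes had groups that did not overlap.

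Of the ISG15 system, Isg15 rose and Usp18 did not pass. Isg15, a small ubiquitin-like protein that is attached to other proteins, had 47.7, 35.4 and 37.6 CPM in STZ pools, against 30.4, 27.8 and 29.4 CPM in control pools. STZ pool 1 was well above the rest, and the other STZ pools were still above all control pools. The log2 fold change was 0.46 ± 0.13 (SE), or 1.37-fold (95% interval 0.17 to 0.74, adjusted p = 0.0443 by edgeR). Leaving out STZ pool 1 gave 0.32 (adjusted p = 0.236), and Isg15 also failed the threshold when control pool 1 (0.107), control pool 2 (0.106), control pool 3 (0.0618) or STZ pool 3 (0.0694) was left out. It did not pass with upper-quartile normalization (0.0515), limma-voom (0.0773), a fit that was not robust (0.0558) or thinned counts (0.104) either. Usp18, the protease that removes ISG15 and restrains the type I receptor, had 42.9, 38.8 and 37.7 CPM in STZ pools and 38.6, 35.5 and 36.0 CPM in control pools (0.11 ± 0.11, adjusted p = 0.576), with the groups overlapping.

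The membrane effectors held the highest levels of the list and its smallest p. Bst2, or tetherin, which holds budding virus at the cell surface, had 264, 231 and 239 CPM in STZ pools, against 190, 185 and 161 CPM in control pools. The groups did not overlap, and STZ pool 1 was the highest. Bst2 rose by 0.45 ± 0.10 (SE) on the log2 scale, or 1.37-fold (95% interval 0.24 to 0.66, adjusted p = 0.00984 by edgeR), and among the 15 alternative settings the call was lost only without STZ pool 1 (adjusted p = 0.0636).

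Ifitm3, which blocks virus entry at endosomal membranes, had 684, 669 and 661 CPM in STZ pools, against 525, 556 and 522 CPM in control pools. The groups did not overlap, and the pools of each lay close together. Ifitm3 rose by 0.33 ± 0.09 (SE) on the log2 scale, or 1.26-fold (95% interval 0.14 to 0.52, adjusted p = 0.0322 by edgeR), and it no longer passed when STZ pool 1 (adjusted p 0.147), STZ pool 2 (0.0628), STZ pool 3 (0.110) or control pool 1 (0.115) was left out. Rsad2, or viperin, an antiviral enzyme of the endoplasmic reticulum, had 221, 227 and 218 CPM in STZ pools and 229, 224 and 268 CPM in control pools (-0.11 ± 0.09, adjusted p = 0.522). Control pool 3 alone stood apart for Rsad2, and the other 5 pools were close together.

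The classical interferon signature genes of the IFIT family showed no call and no gap between groups. Ifit1, which binds foreign RNA lacking a proper cap, had 70.0, 56.6 and 57.6 CPM in STZ pools and 73.4, 60.6 and 57.0 CPM in control pools (log2 fold change -0.06 ± 0.12, adjusted p = 0.806 by edgeR). Ifit2, a binding partner of the other IFIT proteins, had 47.1, 50.1 and 48.1 CPM in STZ pools and 50.1, 59.1 and 46.6 CPM in control pools (-0.10 ± 0.11, adjusted p = 0.614). Ifit3, which stabilises IFIT1, had 63.2, 50.0 and 61.8 CPM in STZ pools and 64.4, 58.5 and 41.3 CPM in control pools (0.08 ± 0.15, adjusted p = 0.813). The groups overlapped in all 3 genes, and the SD of the control pools was larger than the difference between the group means. Ifit3 has a near-identical copy, Ifit3b, which has no row, so its count may hold reads of either.

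The role groups without a call (IFIT, OAS, nucleic acid sensors, GTPases and the mixed remainder) held 23 tested members with log2 fold changes of -0.26 to 0.15. These groups were chosen for having no edgeR call, so the absence of edgeR calls follows from the choice. DESeq2 and limma-voom, run on the same counts, called none of the 23 either. Over all tested genes edgeR called 9.78% in either direction. Of the 23, 1, Trim30a, had an unadjusted p under 0.05 in edgeR, where 24.2% of all tested genes did. The choice of groups favours low numbers here too. The OAS family includes enzymes that sense double-stranded RNA and make the activator of RNase L. Its best expressed member per kilobase, Oasl2, had 166, 166 and 174 CPM in STZ pools and 182, 154 and 152 CPM in control pools (0.05 ± 0.09, adjusted p = 0.794). Oasl1 (0.15), Oas2 (-0.01) and Oas1a (-0.04) did not pass either, and OAS paralogs are similar enough that reads may have been shared between them.

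The sensors of cytosolic RNA, Ddx58 (RIG-I), Ifih1 (MDA5) and their regulator Dhx58 (LGP2), had log2 fold changes of 0.06, -0.15 and 0.05, with adjusted p of 0.406 to 0.830. Ifih1 had 45.6, 41.2 and 43.3 CPM in STZ pools, against 46.2, 47.2 and 51.3 CPM in control pools, so its groups did not overlap although it did not pass. The interferon-inducible GTPases attack the vacuoles of intracellular microbes, and the 6 tested ran from -0.15 for Gbp3 to 0.13 for Gbp2 (adjusted p of 0.312 to 0.961). Gbp3 had 81.3, 81.8 and 81.4 CPM in STZ pools and 96.7, 88.7 and 85.7 CPM in control pools, with every STZ pool below every control pool. Members of the GBP and IRG families are similar in sequence, and Igtp shares 162 exon bases with Irgm2 on the same strand, so reads may have been shared.

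In the remaining group of 7, Ifi44, Ifi35 and Rtp4 were the most abundant per kilobase. Ifi44, a cytoplasmic protein induced by type I interferon, had 238, 228 and 217 CPM in STZ pools and 256, 242 and 192 CPM in control pools (-0.02 ± 0.11, adjusted p = 0.937 by edgeR). Ifi35 had 98.3, 102 and 97.9 CPM in STZ pools and 101, 93.2 and 79.3 CPM in control pools (0.12 ± 0.10, adjusted p = 0.508). Rtp4 had 74.9, 78.1 and 76.7 CPM in STZ pools and 86.0, 79.7 and 75.6 CPM in control pools (-0.07 ± 0.09, adjusted p = 0.669). The groups overlapped in all 3. Trim30a, a ubiquitin ligase of the TRIM family, had 117, 118 and 104 CPM in STZ pools, against 139, 124 and 145 CPM in control pools, and its -0.26 ± 0.09 had an unadjusted p of 0.0141 and an adjusted p of 0.0984.

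The 16 members not given in every library by the rule for named genes had log2 fold changes of -0.26 to 0.15, adjusted p of 0.0984 to 0.976 and 95% intervals that together spanned -0.47 to 0.47. Their deposited counts, rounded, were 57 to 2416 per library. Ifih1, Gbp3 and Trim30a, given above with library values, belong to these 16 and were singled out after their values were seen.

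**Figure D3:**
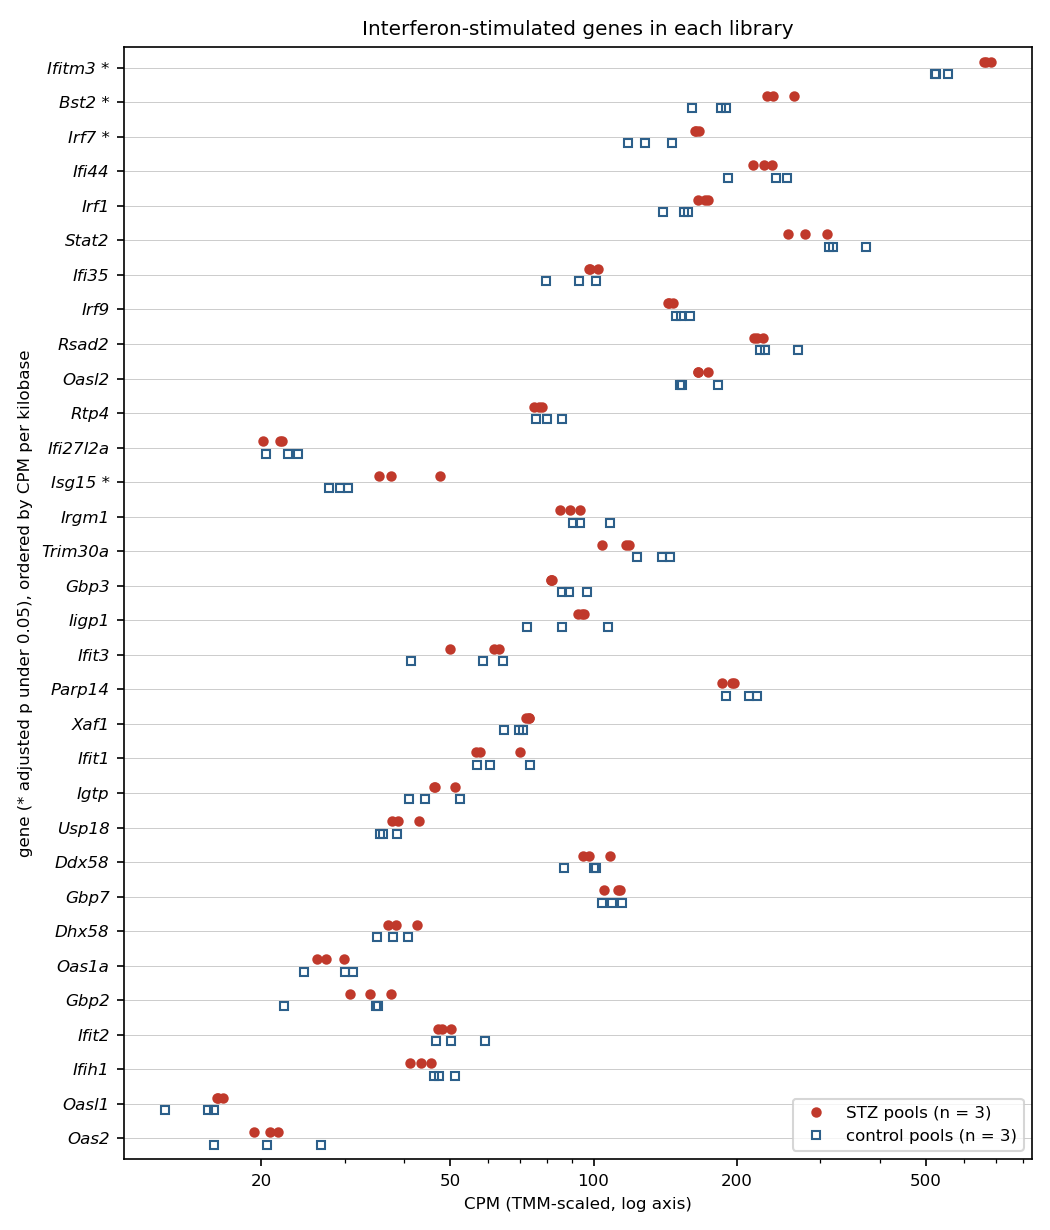
CPM at TMM-normalised library size (horizontal log axis) of each of the 32 interferon-stimulated genes in the 3 STZ pools (filled circles) and the 3 control pools (open squares), ordered from the highest to the lowest CPM per kilobase, with an asterisk on the 4 members called higher. In those 4 rows every circle lies to the right of every square, and in most other rows the symbols interleave.

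Levels differed far more between members than between groups. Per kilobase of listed transcript, Ifitm3 was the highest at 1036 CPM per kb in STZ and 825 CPM per kb in control, followed by Bst2 at 319 CPM per kb in STZ and 233 CPM per kb in control. Irf7 came next at 88.7 CPM per kb in STZ and 70.3 CPM per kb in control. Oas2 was the lowest at 5.35 CPM per kb in STZ and 5.45 CPM per kb in control, and the median member stood at 30.1 CPM per kb over all libraries. Ifitm3 alone made up 16.1% of the summed CPM of the members, and the called members together 26.6%. The top 3 genes by level per length were all called, whereas Isg15 ranked lower at 53.2 CPM per kb in STZ and 38.6 CPM per kb in control.

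Summed over the 32 members, the level was 3826 ± 43.4 CPM in STZ and 3668 ± 185 CPM in control (SD, n = 3 each), and the highest single pool was control pool 1 at 3877 CPM. Without the called members the sum was 2705 ± 33.0 CPM in STZ and 2795 ± 165 CPM in control. Control pools spread more than STZ pools. The median SD of a member on the log2 scale was 0.069 in STZ and 0.134 in control, against 0.125 in STZ and 0.166 in control over all tested genes. Control pool 1 was the highest control for 19 members and control pool 3, the shallowest library, was the lowest control for 17.

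Groups that did not overlap were found for 12 members (37.5%), against 29.1% of all tested genes. In 7 of them the STZ pools lay above the control pools (15.4% of all tested genes did), namely Oasl1, Isg15, Irf1, Irf7, Bst2, Ifitm3 and Xaf1. In the other 5 they lay below (13.7% of all tested genes), namely Irf9, Stat2, Ifih1, Gbp3 and Trim30a. All 4 called members were among the 12.

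The 32 genes lie on 14 chromosomes, none on X or Y. Isg15 (NM_015783) lies on chromosome 4 (156199424 to 156200818, minus strand), Bst2 (NM_198095) on chromosome 8 (71534262 to 71537437, minus strand), and Irf7 (NM_016850; 141263183 to 141266424, minus strand) and Ifitm3 (NM_025378; 141009590 to 141010744, minus strand) on chromosome 7, all in mm10. Ifit1, Ifit2 and Ifit3, within 99.3 kb of chromosome 19, ranged from -0.10 to 0.08, and Gbp2, Gbp3 and Gbp7, within 107.7 kb of chromosome 3, from -0.15 to 0.13. Of the 16 members with ISRE-like letters in the promoter window, 3 were called higher and the median log2 fold change was -0.01. Of the 9 with a window but without these letters, 1 was called higher and the median was 0.08. Among all tested genes 5.47% were called higher, and the difference between these small sets was not tested. Oas1a, whose matches share a GAAA as those of Isg15 and Bst2 do, stood at -0.04, and Irgm1 at -0.13.

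Beyond the list, 111 other genes of the interferon pathway were looked for and 85 were tested. Of these, 6 (7.06%) were called higher and 7 (8.24%) lower, beside the 5.47% and 4.32% of all tested genes given above, and their median log2 fold change was -0.07. Calls in both directions were found among 48 other interferon-stimulated genes, with 4 higher and 4 lower.

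In this second group 3 called genes rose by more than any member of the list. Ly6a, a membrane protein of endothelial and stem cells and the most abundant of the 48 per kilobase, had 1407, 1196 and 1337 CPM in STZ pools, against 806, 816 and 813 CPM in control pools. It rose by 0.69 ± 0.10 (SE) on the log2 scale, or 1.62-fold (adjusted p = 0.000544 by edgeR), with the control pools almost equal. Helz2, a helicase that acts as a nuclear receptor coactivator, had 1070, 1267 and 1140 CPM in STZ pools, against 742, 559 and 784 CPM in control pools, and rose by 0.74 ± 0.13 (adjusted p = 0.00236). Tor3a, an ATPase of the endoplasmic reticulum, had 128, 122 and 114 CPM in STZ pools, against 87.8, 83.7 and 76.9 CPM in control pools, and rose by 0.55 ± 0.09 (adjusted p = 0.00181). Groups did not overlap in any of these 3, and all 3 kept their call under each of the 15 alternative settings.

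A pair of guanylate-binding GTPase genes and a nuclear body gene were lower. Gbp4 had 102, 129 and 122 CPM in STZ pools, against 181, 148 and 173 CPM in control pools, and fell by 0.51 ± 0.11 (SE) on the log2 scale (adjusted p = 0.00960 by edgeR). Gbp9 had 118, 119 and 126 CPM in STZ pools, against 167, 147 and 163 CPM in control pools, and fell by 0.40 ± 0.09 (adjusted p = 0.0109). The annotated exons of Gbp4 and Gbp9 share 60 bases on the same strand, so some reads may have been counted for either gene. Sp100, the scaffold of a nuclear body that represses viral genomes, had 186, 195 and 186 CPM in STZ pools, against 262, 235 and 253 CPM in control pools, and fell by 0.40 ± 0.09 (adjusted p = 0.0101). All 3 failed to pass when control pool 1 was left out (adjusted p of 0.0612 to 0.0708) or STZ pool 1 was (0.0600 to 0.0664), and Sp100 also without STZ pool 3 (0.0567). The other called genes of this group, chosen after their values were seen, were Lgals3bp, a secreted glycoprotein that rose by 0.37 ± 0.10 (adjusted p = 0.0292), and Ddx60, a helicase related to the RNA sensors that fell by 0.38 ± 0.11 (adjusted p = 0.0458). Lgals3bp did not pass without control pool 2 or 3 or STZ pool 1 or 3 (adjusted p up to 0.130), and Ddx60 without any 1 library but control pool 3 (up to 0.189) and under 4 of 9 other settings (up to 0.159).

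Among 14 tested sensors, adaptors and kinases, Traf3, an adaptor shared by several sensing routes, fell by 0.37 ± 0.10 (adjusted p = 0.0313 by edgeR), and Irf3, the most abundant of them per kilobase and the factor that starts interferon transcription, stood at -0.16 (adjusted p = 0.366). None was called higher by edgeR, DESeq2 or limma-voom, where edgeR called 5.47% of all tested genes higher. At an unadjusted p under 0.05 in edgeR, 4 were higher. Among 13 tested inhibitors, Nlrx1, a mitochondrial protein that restrains sensing, rose by 0.61 ± 0.16 (adjusted p = 0.0256), with 16.9, 17.8 and 16.5 CPM in STZ pools, against 12.4, 10.3 and 10.6 CPM in control pools. Rnaseh2a, a subunit of the enzyme that removes RNA from DNA hybrids, rose by 0.41 ± 0.12 (adjusted p = 0.0497), and Ptpn2, a phosphatase of Janus kinases and STAT proteins, fell by 0.45 ± 0.12 (adjusted p = 0.0328). Samhd1, the most abundant inhibitor per kilobase, a nucleotide-degrading enzyme, stood at 0.00. The calls of Traf3 and Rnaseh2a were lost on leaving out any 1 library (adjusted p up to 0.137 and 0.131), and Rnaseh2a was called under 3 of the 9 other settings. Traf3 also did not pass with thinned counts (0.0796). That of Ptpn2 was lost without any 1 library but control pool 3 (up to 0.126), and that of Nlrx1 without control pool 2 or any 1 of the STZ pools (up to 0.0906). Rnaseh2a shares 177 exon bases with Prdx2 on the other strand and Nlrx1 shares 683 with Gm10686, so strand bears on both. Rnaseh2a also shares 339 exon bases with Gm49661 on its own strand, which a strand setting would not separate.

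**Figure D4:**
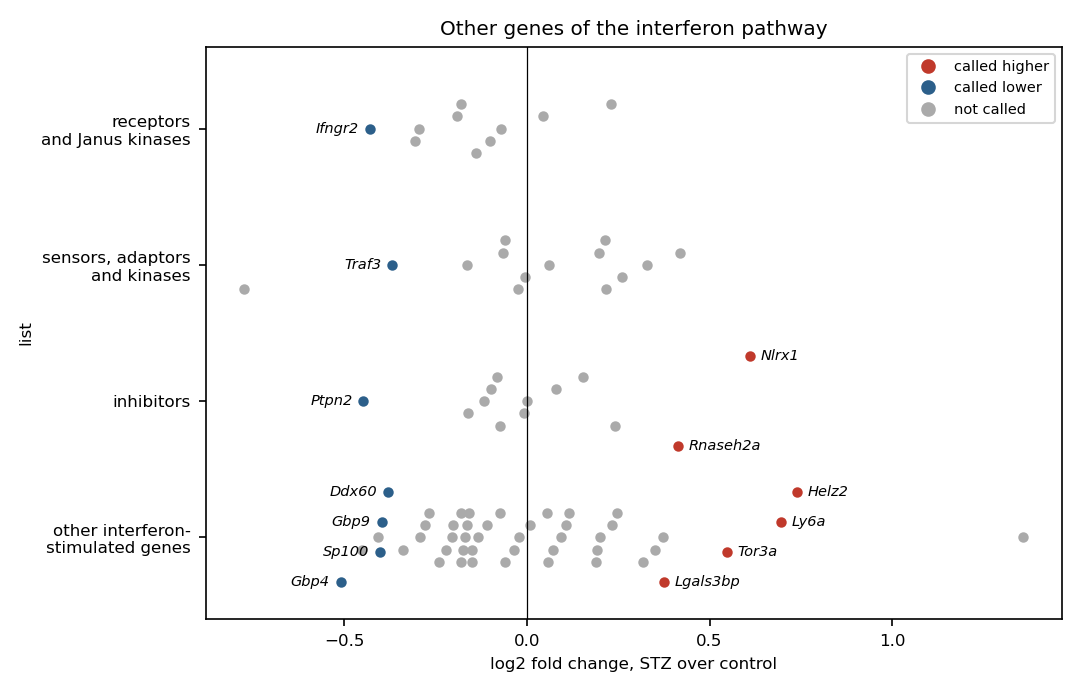
Log2 fold change of STZ over control (horizontal axis) for the 85 tested genes of the interferon pathway outside the list, in 4 rows by role, with 1 point per gene and the vertical offset within a row of no meaning. The 6 genes called higher and the 7 called lower carry their names, and Helz2 at 0.74 and Gbp4 at -0.51 are the called genes farthest from 0.

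Leukocytes express many of these genes, and their markers were read beside the result. Of 24 leukocyte markers 15 had a row and none of these was at 0, while the T cell gene Cd3e and the macrophage gene Adgre1 had no row. Of these, 1 was called higher, Fcer1g, and 2 lower, among them the B cell gene Cd79a. The shares over all tested genes were 5.47% higher and 4.32% lower. The summed level of the list was 303 to 331 CPM in STZ pools and 239 to 394 CPM in control pools, so the groups overlapped. Fcer1g did not pass without control pool 1 or STZ pool 1 or 2 (adjusted p up to 0.117 by edgeR), whereas Cd79a passed whichever library was left out (up to 0.0318). The part of leukocytes, and of the endothelial and mural markers that moved with the groups, in the values of the interferon-stimulated genes was not tested.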

How the data were processed

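RNA of sorted glomerular endothelial cells was analysed from 1 deposited table per library, 3 STZ and 3 control. The deposited values, 1 per gene beside its RefSeq accession, coordinates and transcript length, were taken to be expected counts. Every value was a multiple of 0.5, 2251 genes and 5 members had a fractional one, and 34 blank cells were read as 0. Values were rounded to whole counts. Per the submitters' processing notes, the build was mm10 and limma was used. The sources used here do not state the aligner, counting tool or strand setting. Precision depends on the total counts and on how much pools differ.

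Members and lists were chosen with earlier results of these data known. The whole table was fitted with edgeR 4.0.16 in R 4.3.3 (filterByExpr, TMM, robust quasi-likelihood F test), two-sided, with p-values adjusted by Benjamini-Hochberg over 12786 tested genes and a threshold of 0.05. "Called" means an adjusted p under that threshold, and the biological coefficient of variation was 0.117. The pipeline was tested on simulated data. DESeq2 1.42.0, limma-voom (limma 3.58.1), other scalings and filters, thinned counts, a replicate block and leaving out each library were alternatives. Given in every library were called members, the 8 most abundant uncalled ones per kilobase, the IFIT genes, Isg15, Irf7, Irf9, Stat2 and Usp18. Of other pathway genes, up to 6 called ones per list with the smallest p and the most abundant were named, and any other gene was chosen after its values were seen. Starts were raised by 1 to give 1-based coordinates. Promoter windows came from RefSeq and exon overlaps from GENCODE M21. Of 32 member windows, 21 had their first 30 bases after the start within an annotated transcript of the gene on its strand. On the opposite strand 0 windows were found. For the other windows the start was not found in this way, and positions rest on RefSeq alone. Some genes of these lists are counted but not reported by name here.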

Additional observations from a re-analysis of the deposited data

How the results depend on the processing

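Without 1 library the number of members called higher was 0 to 2, against 4 with all 6, and it was 0 without STZ pool 1. It was 2 with upper-quartile normalization, 2 after thinning and 2 with the replicate block. The number called lower was 0 under each of the 15 alternatives, and no uncalled member was called under any of them. The members' median log2 fold change moved by less than the spread between libraries. Other pathway genes called higher were 3 to 5 and lower 0 to 7 without 1 library, and the lower ones numbered 4 after thinning and 4 with the block. Over all tested genes, 426 to 695 were higher and 236 to 596 lower without 1 library. The labels do not say whether replicate numbers pair the pools. Same-numbered deviations correlated at 0.12, -0.13 and -0.16, and differently numbered ones at -0.24 to 0.29. With 3 pools per group these values cannot decide whether the pools are paired. With the block, Bst2 (adjusted p = 0.0175 by edgeR) and Isg15 (0.0471) were called, and Ifitm3 (0.0916) and Irf7 (0.0641) were not. Of the other pathway genes, the block ended the calls of Traf3 (0.0635), Ptpn2 (0.0565), Rnaseh2a (0.0869) and Ddx60 (0.0821). Irf7 and Isg15 were also lost with upper-quartile normalization (0.0523 and 0.0515) and thinning (0.0655 and 0.104), and Isg15 with limma-voom (0.0773) and a fit that was not robust (0.0558).

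Signs turned for 11 uncalled members, each at most 0.128 in size with all 6 libraries. Oas2 was 0.030 by limma-voom, Gbp7 was -0.0067 with upper-quartile normalization, and Samhd1 was -5.06e-05 with DESeq2 size factors and -0.016 with upper-quartile normalization. Without 1 library, log2 fold changes ran from -0.16 to 0.061 (Ifit1), -0.073 to 0.22 (Ifit3), -0.13 to 0.026 (Oas1a), -0.17 to 0.18 (Oas2), -0.0021 to 0.11 (Ddx58), -0.0092 to 0.11 (Dhx58), -0.035 to 0.23 (Gbp2), -0.023 to 0.048 (Gbp7), -0.012 to 0.17 (Igtp), -0.034 to 0.25 (Iigp1), -0.13 to 0.065 (Ifi44) and -0.066 to 0.062 (Samhd1). The cause of these turns was not tested, and neither was the part of depth, which was lowest in control pool 3.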

Other observations

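Cxcl10, a chemokine induced by interferon gamma and chosen after its values were seen, had 5.80, 5.36 and 10.1 CPM in STZ pools, against 2.20, 4.66 and 1.33 CPM in control pools. It had the largest log2 fold change among the other pathway genes, 1.36 ± 0.40 (SE), and was not called by edgeR (adjusted p = 0.0595). DESeq2 called it, as did edgeR without control pool 2 or STZ pool 2, and over the alternatives its adjusted p ran from 0.0118 to 0.221.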
